A study of Mus musculus with 17 samples.

Results

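The protein kinase, phosphatase and phosphodiesterase genes described here are 35 of the 2615 genes in a deposited table of oocyte RNA sequencing, of which 2259 are protein-coding. A protein-coding gene was taken when its symbol began with Mapk, Map2k, Map3k, Map4k, Prk, Camk, Stk, Pik3, Ppp, Dusp, Ptpn, Ptpr or Akap, or with Pde followed by a digit. The stems Prk and Ppp each gave 6 genes, Stk and Pde each gave 4, Map3k and Dusp each gave 3, and Map4k and Pik3 gave 0. The rule used names and no measured value. It therefore also took proteins that act beside the enzymes, such as the PKA anchors *Akap6* and *Akap13*, the PP1 inhibitor *Ppp1r14b*, and *Camkmt*, a methyltransferase of calmodulin. The deposited protein domain column named a kinase domain for 16 of the 35, a cyclic nucleotide phosphodiesterase domain for 3, a metallophosphatase domain for 2, a dual-specificity phosphatase domain for 2 and a tyrosine phosphatase domain for 2.

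The RNA sequencing compared 3 control libraries (replicates 1, 2 and 6) with 3 *Ehmt2GKO* libraries (replicates 3, 4 and 5) and asked which transcripts differ in oocytes that lack EHMT2, a histone H3K9 methyltransferase. Both groups came from 8-week C57BL/6J mice with Ehmt2 flox/flox alleles, and *Ehmt2GKO* mice also carried Gdf9-Cre, which acts in oocytes from the primordial follicle stage and deletes exons of *Ehmt2*. The labels call all 6 libraries MII oocytes, and the study describes superovulated oocytes. The meiotic stage reached in each group was not analysed here, and a difference in stage and the genotype cannot be told apart in these libraries. Libraries were made from polyadenylated RNA with a low-input kit that does not mark the strand. How many oocytes or animals entered a library is not given in the sources used here, so the spread between libraries may be technical. *Ehmt2* is not in the table, so the deletion was not analysed here.

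Fully grown oocytes are held in prophase by high cyclic AMP, which activates protein kinase A (PKA), and a phosphodiesterase that breaks down cyclic AMP lets them resume meiosis. Cyclin-dependent kinase 1 then drives entry into metaphase, and the MOS, MEK and ERK kinases hold the egg at metaphase II. Calcium released at fertilization ends that arrest through calmodulin-dependent kinases. The phosphatases PP2A and PP6 oppose these kinases, and PP2A also protects cohesin at centromeres.

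Every gene of the table had a deposited adjusted P below 0.05 for the same 6 libraries, so the tests given here restate that selection and are descriptions. A gene was called when its absolute log2 fold change, *Ehmt2GKO* over control, was above 1 and its edgeR quasi-likelihood adjusted p was below 0.01. Normalized counts are counts divided by a size factor for each library, and library values are listed in the order of replicates 1, 2 and 6 for control and 3, 4 and 5 for *Ehmt2GKO*. Each library had between 4060653 and 4258350 counts in the table, of which the 35 genes took between 0.633% and 0.760%, and its total depth is unknown. With 3 libraries against 3, no 2-sided exact permutation test of a gene can give a p below 0.10. In such bulk libraries, a change in the share of cells that express a gene and a change in RNA per cell cannot be told apart.

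Sequences upstream of called members are shown because genes that changed in the same direction differed widely in the CpG content there. The RefSeq table held 27 windows for 24 of the 35 genes, each of 250 bases before and 50 after the start of transcription on GRCm38.p6. For 5 called members, at least 150 of the 250 bases lay outside the gene and outside annotated exons. They are given from 5′ to 3′ on the strand of the gene, with CG dinucleotides in capitals.
Akap6: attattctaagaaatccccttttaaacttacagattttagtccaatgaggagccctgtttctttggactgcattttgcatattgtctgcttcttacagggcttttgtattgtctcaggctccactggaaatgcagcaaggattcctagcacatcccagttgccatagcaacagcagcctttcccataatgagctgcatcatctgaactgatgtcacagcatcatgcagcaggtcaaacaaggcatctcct
Map3k5: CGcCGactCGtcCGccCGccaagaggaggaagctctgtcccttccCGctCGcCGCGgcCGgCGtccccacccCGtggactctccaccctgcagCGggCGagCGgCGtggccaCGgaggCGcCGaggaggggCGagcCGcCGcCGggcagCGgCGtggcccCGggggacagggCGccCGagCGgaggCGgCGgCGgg
Pde6b: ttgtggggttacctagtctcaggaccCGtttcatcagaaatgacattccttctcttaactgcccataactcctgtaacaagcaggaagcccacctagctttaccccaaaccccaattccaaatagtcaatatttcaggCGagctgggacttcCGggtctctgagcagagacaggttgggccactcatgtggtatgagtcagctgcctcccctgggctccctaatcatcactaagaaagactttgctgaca
Mapk10: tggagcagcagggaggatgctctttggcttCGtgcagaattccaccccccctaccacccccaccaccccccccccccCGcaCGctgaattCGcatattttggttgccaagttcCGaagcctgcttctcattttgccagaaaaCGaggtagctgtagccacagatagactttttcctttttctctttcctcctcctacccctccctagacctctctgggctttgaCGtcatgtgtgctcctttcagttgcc
Dusp6: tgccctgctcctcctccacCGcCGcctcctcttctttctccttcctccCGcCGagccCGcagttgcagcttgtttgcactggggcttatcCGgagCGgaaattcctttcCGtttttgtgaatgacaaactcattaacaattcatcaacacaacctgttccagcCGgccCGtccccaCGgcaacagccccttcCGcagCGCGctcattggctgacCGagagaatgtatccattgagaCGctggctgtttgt
The first pair stands upstream of genes that fell in *Ehmt2GKO* oocytes and the other 3 upstream of genes that rose. The *Akap6* run (chr12:52699133-52699382, plus strand) holds 0 CG dinucleotides in 250 bases, and the *Map3k5* run (chr10:19934276-19934471, plus strand) holds 32 in 196 bases. Of the genes that rose, *Pde6b* (chr5:108388123-108388372, plus strand) has 3 CG in its 250 bases, *Mapk10* (chr5:103211335-103211584, minus strand) has 7, and *Dusp6* (chr10:99262981-99263230, plus strand) has 16. Both CG-poor and CG-rich sequence thus stood upstream of genes of either direction. Over the windows of 300 bases, the members had a median of 17 CG dinucleotides and the 32851 windows of all RefSeq genes a median of 7. The core of the cyclic AMP response element, TGACG on either strand, was present in 7 of the 27 member windows (25.9%) and in 20.8% of all windows. The complete palindrome TGACGTCA, which contains that core on both strands, was present in 1 member window (3.70%), that of *Mapk10*, and in 1.79% of all windows. The windows of all genes were not limited to protein-coding genes or to genes detected in oocytes, so these comparisons are not matched.

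Of the 35 genes, 34 passed the filter on low counts, and *Prkce* did not. In *Ehmt2GKO* oocytes 8 of the 34 rose, 3 fell and 23 were not called. This is 32.4% of the members, against 35.7% of the 2516 genes tested in the table and 32.0% of its 2198 tested protein-coding genes. Genes called higher made up 18.7% of the table and genes called lower 16.9%. Of the tested protein-coding genes, 385 were called higher and 319 lower. The share of members called in either direction was thus close to the background of the list. By direction the members were less even, with 8 higher and 3 lower, on few genes. The fold change was positive for 21 of the 34 and negative for 13, and 61.8% of members against 49.4% of all tested genes had a positive value. The median absolute log2 fold change was 0.84 over the members and 0.76 over all tested genes. In every one of the 34 members the 3 control values and the 3 *Ehmt2GKO* values did not overlap, as was so for 96.1% of the table. Of the members, *Stk32a* (log2 fold change 4.01), *Prkcb* (2.41), *Map3k13* (2.32), *Dusp6* (2.15), *Ptprq* (1.98), *Pde7b* (1.85), *Mapk10* (1.14) and *Pde6b* (1.02) rose, and *Akap6* (-1.49), *Ppp3ca* (-1.41) and *Map3k5* (-1.18) fell.

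**Figure D1:**
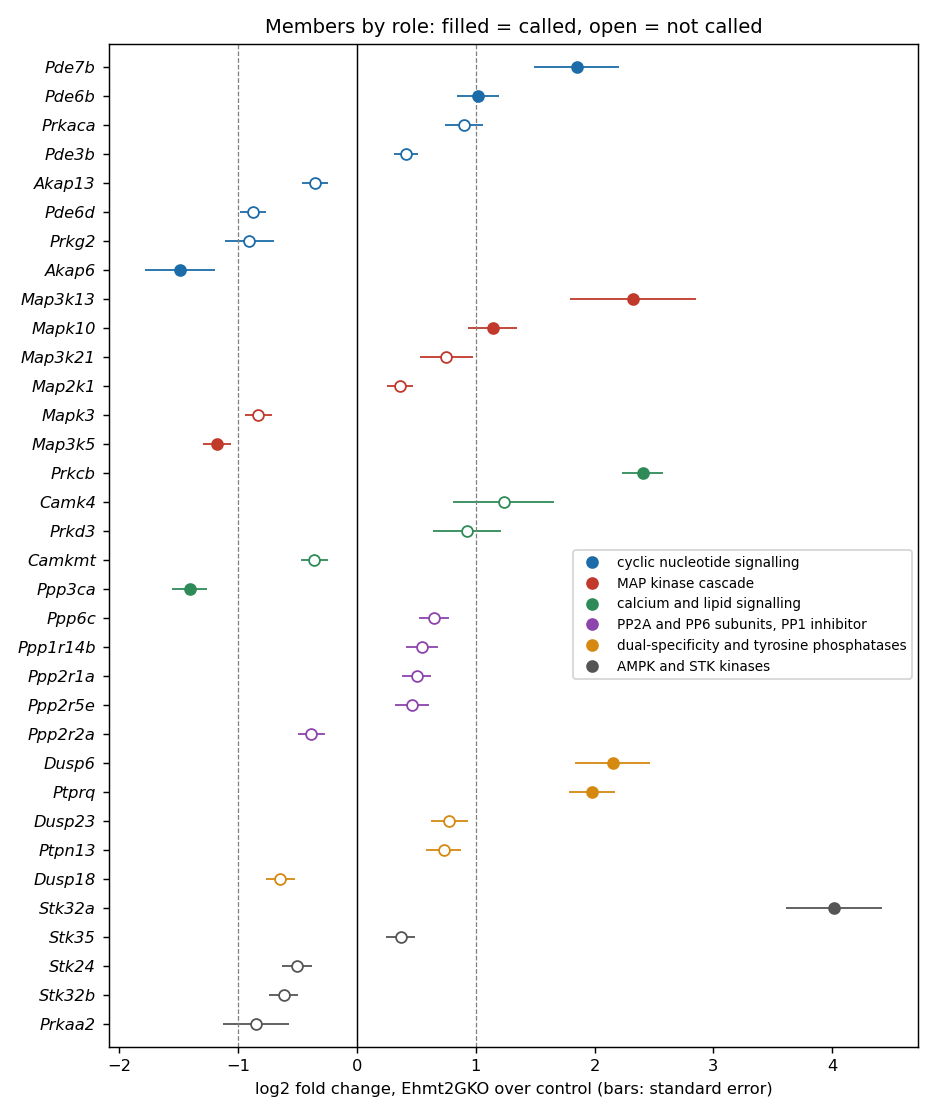
Log2 fold change (Ehmt2GKO over control, horizontal axis) of the 34 tested members, in rows grouped and coloured by role, with bars for the standard error and dashed lines at the fold threshold in each direction. Filled points mark the 11 called members, which run from -1.49 (Akap6) to 4.01 (Stk32a), and none of them is a PP2A or PP6 subunit or the PP1 inhibitor.

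The members that were called tended to be those with few reads. Of the 12 tested members with fewer than 200 mean normalized counts over the 6 libraries, 7 were called, and of the 22 with at least 200, 4 were called. The same split over all tested genes gave 75.5% called under 200 and 12.5% called at 200 or more. Per kb of exon, control levels of the members ran from 0.484 normalized counts (*Map3k13*) to 1856 (*Map2k1*). The highest levels per kb belonged to *Map2k1*, the PP2A scaffold gene *Ppp2r1a* (985 in control) and the ERK1 gene *Mapk3* (665 in control), and none of these was called. The coefficient of variation between the libraries of a group had a median of 9.99% in control and 12.5% in *Ehmt2GKO* oocytes.

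**Figure D2:**
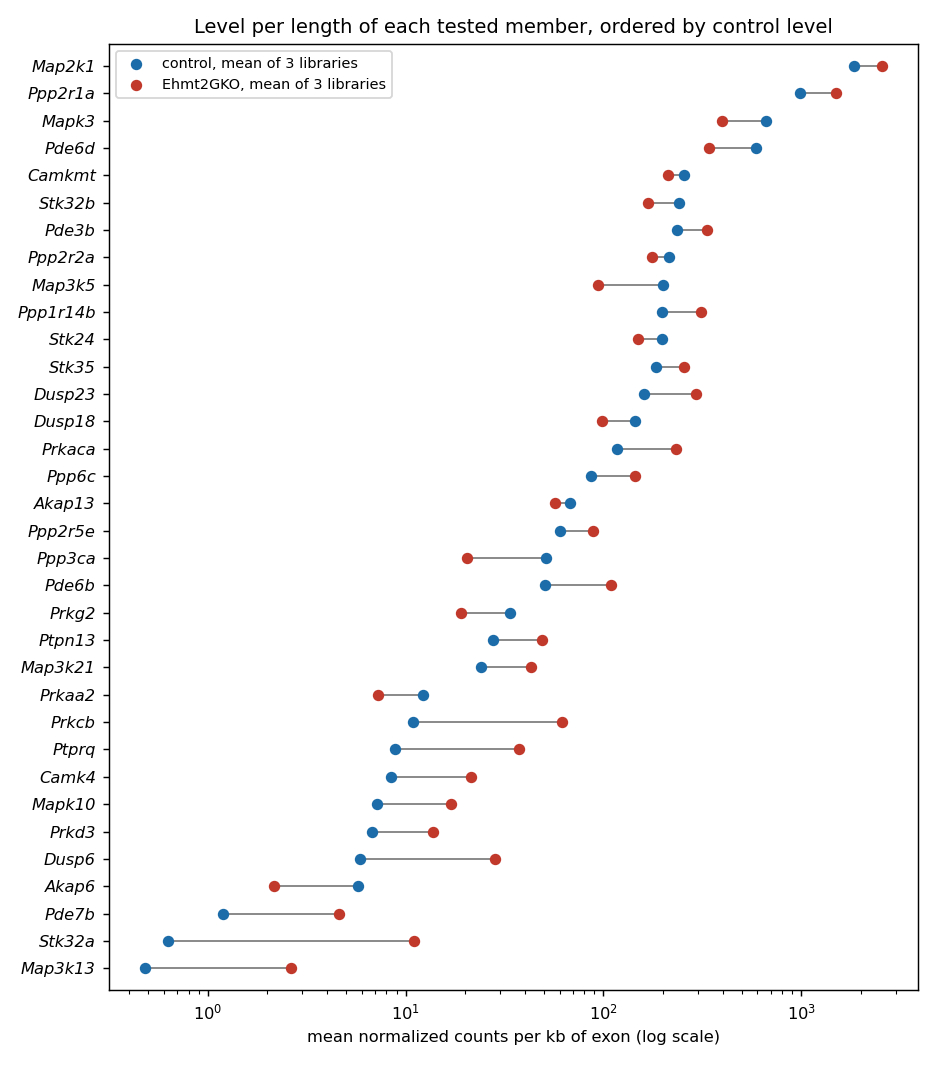
Mean normalized counts per kb of exon (horizontal axis, log scale) of the 34 tested members, in rows ordered by their control level, with control means in blue and Ehmt2GKO means in red (3 libraries each). Lines are short for highly expressed genes such as Map2k1 (1856 and 2547) and longer for low ones such as Stk32a (0.628 and 11.0).

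Among the 8 genes of cyclic nucleotide signalling, 2 rose, 1 fell and 5 were not called. This is 37.5% called, beside 35.7% of the genes tested in the table. *Pde7b*, a phosphodiesterase specific to cyclic AMP, was at 10.8, 12.6 and 21.3 normalized counts in the control libraries and at 52.0, 69.1 and 51.4 in the *Ehmt2GKO* libraries. All 3 *Ehmt2GKO* values lay above the highest control value, and the log2 fold change was 1.85 ± 0.36 (SE; edgeR adjusted p = 0.000232). *Pde6b*, the cyclic GMP phosphodiesterase of rod photoreceptors, had 243, 326 and 191 normalized counts in control and 502, 517 and 631 in *Ehmt2GKO* oocytes. Its log2 fold change was 1.02 ± 0.18 (SE; edgeR adjusted p = 9.95e-05). That call depends on single libraries, since the log2 fold change was 0.99 without control replicate 1, 0.84 without control replicate 6 and 0.93 without *Ehmt2GKO* replicate 5, each short of the fold threshold. *Akap6*, which anchors PKA at the nuclear envelope of muscle cells, fell. Its values were 82.4, 79.3 and 93.8 normalized counts in control and 39.2, 34.0 and 23.1 in *Ehmt2GKO* oocytes, with a log2 fold change of -1.49 ± 0.29 (SE; edgeR adjusted p = 0.000265).

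The other 5 genes of cyclic nucleotide signalling were not called. *Prkaca*, the catalytic subunit of PKA, had 234, 300 and 337 normalized counts in control and 507, 531 and 697 in *Ehmt2GKO* oocytes (log2 fold change 0.90 ± 0.16, SE). Every *Ehmt2GKO* value was above every control value, and without control replicate 6 the log2 fold change was 1.00 (edgeR adjusted p = 5.42e-05), just past both thresholds. *Pde3b*, a phosphodiesterase of cyclic AMP that is inhibited by cyclic GMP, was at 1983, 2117 and 2315 normalized counts in control and 2735, 3256 and 3104 in *Ehmt2GKO* libraries (log2 fold change 0.41 ± 0.10, SE). The related gene *Pde3a* is not in the table. *Akap13*, another anchor of PKA, had 1454, 1494 and 1312 in control and 1143, 1132 and 1285 in *Ehmt2GKO* oocytes (log2 fold change -0.35 ± 0.11, SE). *Pde6d*, named as a phosphodiesterase subunit and known to carry prenylated proteins, had the highest level per kb of the group, with a mean of 1281 ± 63.3 normalized counts in control and 745 ± 57.1 in *Ehmt2GKO* oocytes (SD, n = 3). *Prkg2*, a kinase activated by cyclic GMP, had means of 180.3 ± 22.8 and 103 ± 18.9 (SD, n = 3). Its log2 fold change was -0.90, and -1.07 when *Ehmt2GKO* replicate 4 was left out, past both thresholds. The PKA subunit and the phosphodiesterases of cyclic AMP (*Prkaca*, *Pde3b*, *Pde7b*) thus all had higher values in *Ehmt2GKO* oocytes, while both anchors of PKA had lower ones.

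**Figure D3:**
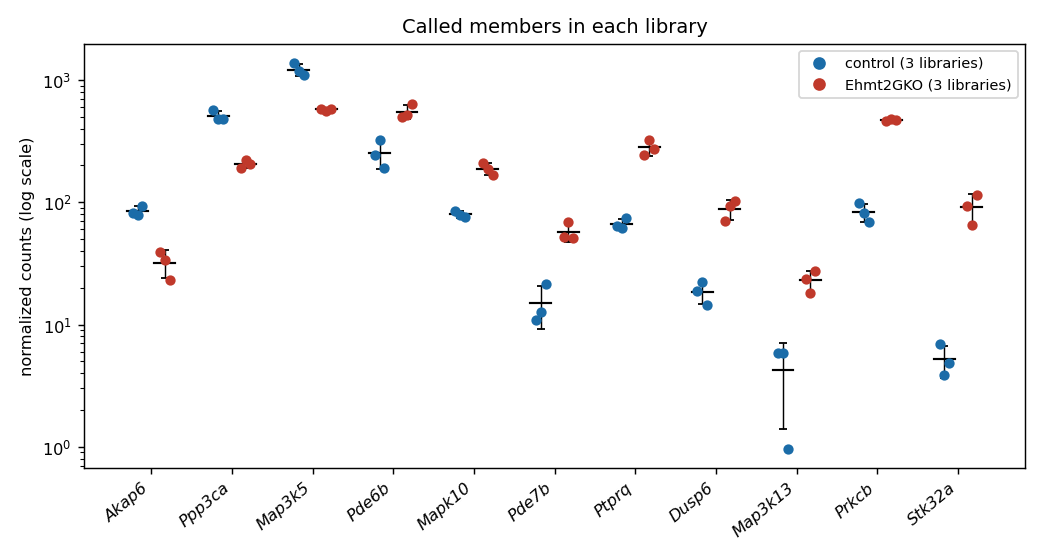
Normalized counts (vertical axis, log scale) of the 11 called members in each of the 3 control (blue) and 3 Ehmt2GKO (red) libraries, with black bars for the mean and standard deviation. No gene's groups overlap, from Akap6 (control 79.3 to 93.8, Ehmt2GKO 23.1 to 39.2) on the left to Stk32a (3.87 to 6.87 and 64.9 to 115.5) on the right.

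In the MAP kinase cascade, 2 of 6 members rose, 1 fell and 3 were not called, beside 35.7% called among all genes tested in the table. A group of 6 genes is too small to set its share apart from that background. MAP kinases act in tiers, in which a MAP3K activates a MAP2K and that in turn activates a MAPK. In the lowest tier, *Mapk3*, which encodes ERK1, had 1391, 1575 and 1534 normalized counts in control and 939, 799 and 958 in *Ehmt2GKO* oocytes. The groups were well apart, but the log2 fold change of -0.83 ± 0.11 (SE) did not reach the fold threshold. *Mapk10*, which encodes JNK3 and is best known from neurons, rose from 85.4, 79.3 and 75.4 normalized counts to 211, 187 and 167, a log2 fold change of 1.14 ± 0.21 (SE; edgeR adjusted p = 0.000128). Above them, *Map2k1*, which encodes MEK1, had 5581, 6692 and 6606 in control and 7631, 8508 and 9771 in *Ehmt2GKO* libraries (log2 fold change 0.36 ± 0.11, SE). The genes of MEK1 and ERK1, which act in sequence, thus had fold changes of opposite sign.

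The 3 MAP3K genes also differed in sign. *Map3k5*, which encodes the stress-activated kinase ASK1, fell from 1372, 1176 and 1103 normalized counts to 579.6, 561 and 583. Its log2 fold change was -1.18 ± 0.12 (SE; edgeR adjusted p = 5.49e-07), and it was the fallen member with the highest level. *Map3k13*, which encodes the leucine zipper-bearing kinase LZK, rose from raw counts of 6, 6 and 1 to 24, 17 and 26. Its log2 fold change was 2.32 ± 0.53 (SE; edgeR adjusted p = 0.000858). *Map3k13* also passed the filter only through the group in which it is high, so the p is no support, and it was not tested when at least 10 counts in every library were required. *Map3k21*, a mixed-lineage kinase, had means of 137 ± 36.9 normalized counts in control and 244 ± 51.9 in *Ehmt2GKO* oocytes (SD, n = 3) and was not called. *Dusp6*, a phosphatase that inactivates ERK, rose from 18.6, 22.2 and 14.5 normalized counts to 69.6, 92.5 and 102.9. The log2 fold change of *Dusp6* was 2.15 ± 0.32 (SE; edgeR adjusted p = 2.06e-05). In *Ehmt2GKO* oocytes the transcript of ERK1 was thus at the lower level and that of this ERK phosphatase at the higher one.

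Among the 6 genes of calcium and lipid signalling, 1 of the 5 tested rose and 1 fell. The called share of this group is thus close to the 35.7% of all genes tested in the table. *Prkcb*, a conventional protein kinase C that needs both calcium and diacylglycerol, had 98.1, 82.2 and 69.6 normalized counts in control and 462, 481 and 473 in *Ehmt2GKO* oocytes. The *Ehmt2GKO* values were close together (SD 9.36, n = 3), and the log2 fold change of 2.41 ± 0.17 (SE; edgeR adjusted p = 1.02e-08) had the smallest adjusted p of the 34 tested members. *Ppp3ca*, a catalytic subunit of the calcium-dependent phosphatase calcineurin, fell. It had 566, 476.5 and 483 normalized counts in control and 190.3, 220.0 and 205 in *Ehmt2GKO* oocytes, a log2 fold change of -1.41 ± 0.15 (SE; edgeR adjusted p = 5.73e-07). Transcripts of a calcium-dependent kinase and of a calcium-dependent phosphatase thus moved in opposite directions.

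*Camk4*, a calmodulin-dependent kinase, narrowly missed the call. Its raw counts were 39, 38 and 8 in control and 71, 47 and 85 in *Ehmt2GKO* oocytes. The log2 fold change was 1.23 ± 0.43 (SE; edgeR adjusted p = 0.0101), and it dropped to 0.78 without control replicate 6, the library with the lowest value. Only the *Ehmt2GKO* group reached 10 counts in every library. *Camk4* thus passed the filter on low counts only through the group in which it is high, and its p is no support. *Prkd3*, a kinase activated by diacylglycerol and protein kinase C, was at 49.1, 62.8 and 112 in control and 133, 198 and 122 in *Ehmt2GKO* libraries. Its log2 fold change was 0.92 in all libraries and 1.32 without control replicate 6, in which it was highest and close to the lowest *Ehmt2GKO* value. *Prkce*, a protein kinase C that does not need calcium, had raw counts of 0, 0 and 0 in control and 7, 2 and 13 in *Ehmt2GKO* oocytes. With control set to a floor of 3 counts per library, the ratio of the means was 2.59, but an *Ehmt2GKO* library with 2 counts lay below that floor. *Prkce* had too few reads for the test. *Camkmt*, which methylates calmodulin and is not a kinase, had the highest control level per kb of this group and means of 1048 ± 10.1 and 870.2 ± 69.2 normalized counts (SD, n = 3).

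None of the 4 PP2A and PP6 subunits and the PP1 inhibitor was called, and 4 of these 5 genes had a positive fold change. All 5 had at least 200 mean normalized counts, a level at which 12.5% of tested genes in the table were called, so 0 of 5 is close to the background. *Ppp2r1a*, the scaffold on which PP2A is assembled, had 2664, 3597 and 3822 normalized counts in control and 4497, 5048 and 5691 in *Ehmt2GKO* oocytes (log2 fold change 0.50 ± 0.12, SE). Control replicate 1 was the lowest of the 6, and without it the value was 0.36. Of its regulatory subunits, *Ppp2r2a*, which encodes B55 alpha, had 1141, 1247 and 1088 in control and 842, 932 and 1076 in *Ehmt2GKO* libraries (log2 fold change -0.38 ± 0.12, SE). *Ppp2r5e*, which encodes B56 epsilon of the family that shugoshin recruits to centromeres, had 368, 310.3 and 291 in control and 495, 487 and 443 in *Ehmt2GKO* oocytes (log2 fold change 0.46 ± 0.15, SE). The B55 and B56 subunit genes thus had opposite signs, each by less than the fold threshold. *Ppp6c*, the catalytic subunit of PP6, which restrains Aurora A at the spindle, was at 407, 365 and 385 in control and 633, 628 and 674 in *Ehmt2GKO* oocytes (log2 fold change 0.65 ± 0.13, SE). The PP1 inhibitor *Ppp1r14b* had means of 303 ± 24.0 and 473.5 ± 15.1 (SD, n = 3).

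**Figure D4:**
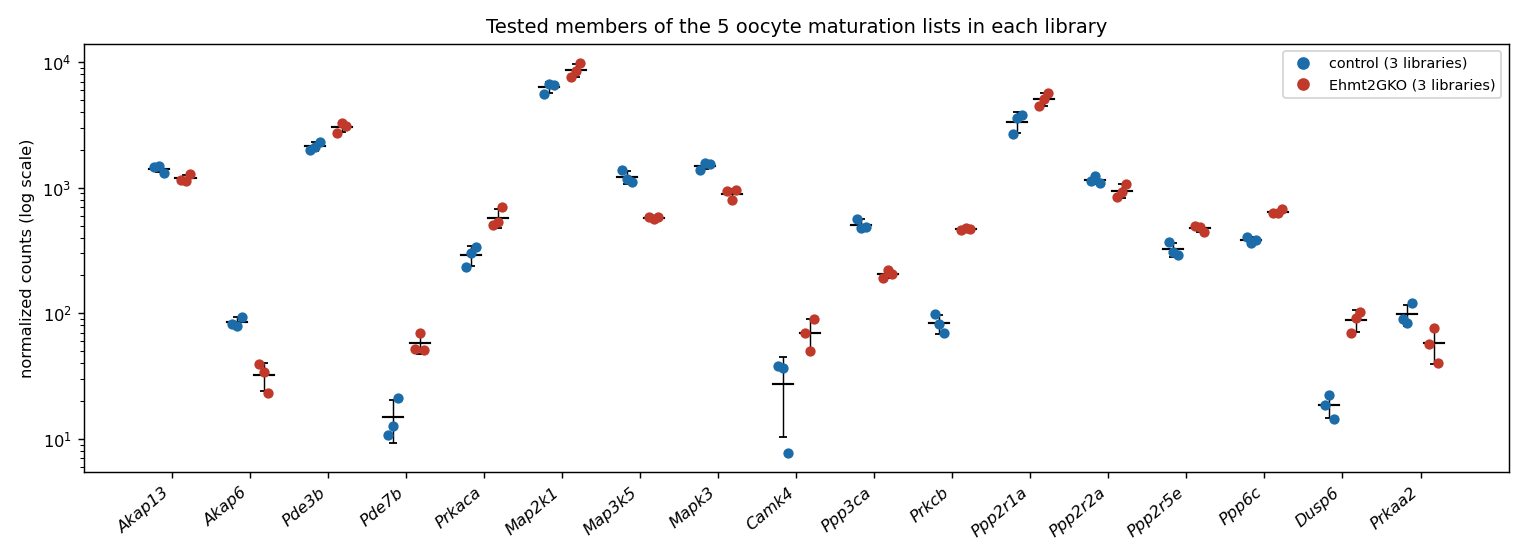
Normalized counts (vertical axis, log scale) of the 17 tested members of 5 lists of oocyte maturation genes in each control (blue) and Ehmt2GKO (red) library, with black bars for the mean and standard deviation, ordered by role. Prkcb and Dusp6 stand far apart between the groups, while Map2k1, Pde3b and Ppp2r2a differ by less than the fold threshold.

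Of the 5 dual-specificity and tyrosine phosphatases, *Dusp6* and *Ptprq* rose. As 35.7% of all genes tested in the table were called, the called share of these 5 is close to the background. *Ptprq*, a receptor-type phosphatase of phosphoinositides known from the hair cells of the inner ear, had 63.8, 61.9 and 74.5 normalized counts in control and 244, 323 and 275 in *Ehmt2GKO* oocytes. Its lowest *Ehmt2GKO* value was far above the highest control value (log2 fold change 1.98 ± 0.19, SE; edgeR adjusted p = 3.00e-07). *Dusp23*, a small phosphatase and the member with the highest level per kb of this group, had means of 226 ± 6.62 in control and 414 ± 71.4 in *Ehmt2GKO* oocytes (SD, n = 3), and *Ptpn13*, a large tyrosine phosphatase, had means of 334.5 ± 50.7 and 592.5 ± 65.7. *Dusp18* had lower values in *Ehmt2GKO* oocytes, with means of 670.0 ± 39.1 and 457 ± 11.5 (SD, n = 3). These 3 were not called, with log2 fold changes of 0.78, 0.73 and -0.64.

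Among AMPK and the STK kinases, 1 of 5 genes rose (20.0% called, beside 35.7% for the table). *Stk32a*, a little-studied serine/threonine kinase, had 6.87, 3.87 and 4.83 normalized counts in control and 93.2, 64.9 and 115.5 in *Ehmt2GKO* oocytes. The ratio of the means was 17.6, and the log2 fold change was 4.01 ± 0.40 (SE; edgeR adjusted p = 3.86e-07). With raw counts of 7, 4 and 5 in control, *Stk32a* passed the filter on low counts only through the group in which it is high, so its p is no support for the difference, and it was not tested when at least 10 counts in every library were required. Its near relative *Stk32b* was not called, with means of 836 ± 65.0 in control and 582 ± 52.5 in *Ehmt2GKO* oocytes (SD, n = 3; log2 fold change -0.62). *Prkaa2*, the alpha 2 catalytic subunit of the energy sensor AMPK, had 90.3, 84.1 and 119.9 normalized counts in control and 56.9, 76.5 and 39.9 in *Ehmt2GKO* libraries. Its log2 fold change of -0.85 ± 0.28 (SE) moved to -1.10 without *Ehmt2GKO* replicate 4, past both thresholds. *Stk35*, a nuclear kinase, had the highest mean level per kb of this group over both conditions, with means of 1140.0 ± 56.6 and 1575 ± 285 normalized counts, and *Stk24*, which encodes MST3, had means of 1058 ± 78.6 and 796 ± 92.8 (SD, n = 3).

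The 5 lists of kinase, phosphatase and phosphodiesterase genes known from oocyte maturation held 119 symbols, of which 18 are in the table and 17 were tested. Of these 17, 3 rose (*Pde7b*, *Dusp6* and *Prkcb*), 3 fell (*Akap6*, *Map3k5* and *Ppp3ca*) and 11 were not called, and their share of called genes was 35.3% beside 35.7% for the table. The cyclic AMP list had 5 listed genes, the MAP kinase list 4, the calcium list 4, the phosphatase list 4 and the list for PI3 kinase and AMPK 1. The other symbols of these lists are not among the genes selected by the deposited adjusted P. Of another 119 genes of the same pathways whose names the rule did not take, 12 were in the table. Of these 12, 1 rose, 1 fell and 10 were not called. Their called share was 16.7%, beside 35.7% for the table and 12.5% for tested genes of at least 200 mean normalized counts. *Gab1*, an adaptor that links receptors to PI3 kinase, rose from raw counts of 24, 14 and 29 to 488, 491 and 533 (log2 fold change 4.48 ± 0.22, SE). *Ccnb3*, which encodes a cyclin of meiosis, fell from raw counts of 1290, 1188 and 1049 to 495, 501 and 415 (log2 fold change -1.33 ± 0.13, SE).

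Several members lie near each other. *Map3k5* and *Pde7b* are 255250 bases apart on chromosome 10 with 3 protein-coding genes between them, and the former fell while the latter rose. *Mapk10* and *Ptpn13* are 213857 bases apart on chromosome 5 with 0 protein-coding genes between them, and both had positive fold changes (1.14 and 0.73). On chromosome 17, *Camkmt* and *Prkce* are 709645 bases apart, and the former had a lower mean in *Ehmt2GKO* oocytes while the latter was at 0 in all control libraries. In GENCODE vM21, no member had a near-identical copy elsewhere, and 5 members shared between 0.6% and 6.5% of their exon bases with another gene, the most being *Prkce*. Reads in such shared bases, and antisense reads, could not be assigned to a gene by strand.

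Markers of oocytes and of the cumulus cells that surround them were compared between the groups. Of 17 oocyte markers, 7 were in the table, with between 1763 and 25995 raw counts in each library. The zona pellucida gene *Zp3* fell (means of 6744 ± 36.1 and 3467 ± 102 normalized counts, SD, n = 3), and the other 6 were not called. Of 24 cumulus and granulosa markers, 2 were in the table, and their summed normalized counts were between 324 and 367 in control and between 259 and 349 in *Ehmt2GKO* libraries. *Ptgs2* rose from raw counts of 6, 10 and 14 to 107, 74 and 59, and *Kitl* had 368, 325 and 335 in control and 225, 254 and 188 in *Ehmt2GKO* oocytes. The part of other cells in the values of the kinase and phosphatase genes was not tested.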

How the data were processed

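RNA sequencing of 3 control and 3 *Ehmt2GKO* oocyte libraries was analysed, with groups taken from the sample labels. The authors deposited whole-number read counts per gene without normalization. The submitters' processing notes name FastQC, HISAT2, DESeq2 and GRCm38 without roles, and the counting program and annotation are not given in the sources used here. Columns of the authors' comparison were deposited beside them, namely a ratio (the fold change), the log2 of that ratio, and p-values before and after adjustment. They were left unused, except to count that all 2615 rows have an adjusted p-value below 0.05. Reduced representation bisulfite samples of the series were not analysed here.

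The genes were fitted together in R 4.3.3 with edgeR 4.0.16 (a minimum count of 10 in filterByExpr, scaling by TMM, quasi-likelihood F-test, Benjamini-Hochberg adjustment over all 2516 tested genes). TMM assumes that most genes do not change, which a list selected for change may not meet. Standard errors are absolute log2 fold changes divided by the root of F. Normalized counts used size factors of DESeq2 1.42.0, and the alternatives also used limma 3.58.1. A log2 fold change from the TMM fit therefore need not equal the log2 ratio of the normalized counts printed beside it. The scripts were tested on simulated data. Levels per kb used exon lengths of GENCODE vM21, copies were searched with blastn 2.17.0, and promoter windows came from RefSeq on GRCm38.p6.

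The members and gene lists were chosen with earlier results of these data known. Values are given for called members, members of the 5 oocyte maturation lists, the member with the highest level per kb of each role group and called genes among the pathway genes outside the rule. *Prkg2*, *Map3k21*, *Prkd3*, *Ppp1r14b*, *Dusp18*, *Ptpn13*, *Stk24* and *Stk32b* were named after their values were seen, so that every member is described. The alternatives were 3 other scalings, DESeq2, limma voom, 2 filters, a looser adjusted p of 0.05, a test of the fold change against 2 and leaving out each library.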

Additional observations from a re-analysis of the deposited data

How the results depend on the processing

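Under 15 alternatives no member changed the sign of its fold change, and 480 of 507 pairs of a member and an alternative kept their side of the thresholds. In 17 pairs a member was newly called and in 10 it was no longer called. These pairs leave out members that an alternative did not test, and *Prkce*. When every library had to hold 10 counts or more, *Stk32a*, *Map3k13* and *Camk4* were not tested, which left 9 called members. The number of called members was between 9 and 13 under the other scalings, DESeq2, limma voom, the filters and the looser adjusted p. Under these alternatives 29.0% to 38.2% of tested members were called, beside 27.3% to 38.2% of all tested genes. When the fold change was tested against 2, 4 members were called higher (*Stk32a*, *Prkcb*, *Dusp6* and *Ptprq*) and 0 lower, 4 in all, beside 10.3% of all genes, and 1 pathway gene outside the rule was called. This test asks for more than a fold of 2, so fewer genes pass by construction. The 3 members that fell had adjusted p of 0.0121 (*Ppp3ca*), 0.0816 (*Akap6*) and 0.114 (*Map3k5*). With 1 library left out, 11 to 13 members were called, 8 or 9 of them higher and 3 to 5 lower. Each of these fits also called 2 pathway genes outside the rule. The called members were 32.35% to 38.24% of those tested, beside 31.17% to 36.05% of all tested genes. The 5 lower calls arose without *Ehmt2GKO* replicate 4, when *Prkg2* and *Prkaa2* were added. *Camk4* was called under 9 alternatives and *Prkd3* under 5, and *Prkce* was called higher when no filter on low counts was used. Relative to the main scaling, the other scalings shifted the median log2 fold change of all genes by at most 0.0940. No paired analysis was possible because control and *Ehmt2GKO* libraries have no replicate number in common. The depth over all genes is unknown, and genes with few reads, such as *Map3k13* and *Prkce*, have the least precise values.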

Other observations

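The deposited protein domain column named a kinase domain for another 41 protein-coding genes of the table, whose symbols the rule did not take. All 41 were tested, and 5 were called higher and 2 lower. This 17.1% compares with 26.7% of the 15 tested members with a kinase domain and with 32.0% of all tested protein-coding genes. These shares are not matched for read level, although 75.5% of tested genes under 200 mean normalized counts were called and 12.5% of the others. Several of the 41 belong to the Eph receptors, tyrosine kinases known from cell contact and axon guidance, and these were named after their values were seen. *Ephb1* had raw counts of 20, 9 and 27 in control and 173, 173 and 205 in *Ehmt2GKO* oocytes (log2 fold change 3.28 ± 0.31, SE; edgeR adjusted p = 1.83e-07). *Epha5* fell from raw counts of 40, 58 and 49 to 13, 6 and 15 (log2 fold change -2.11 ± 0.39, SE; edgeR adjusted p = 0.000156). *Ephb1* and *Epha5* each had a library below 10 counts in the lower group. Both thus passed the filter on low counts only through the group in which they are high, and their p is no support. *Epha3* and *Epha4* were not called, with log2 fold changes of -0.41 and 0.40. Outside this family, the calmodulin-dependent death-associated kinase gene *Dapk2* fell from raw counts of 252, 271 and 248 to 87, 83 and 78 (log2 fold change -1.64 ± 0.18, SE; edgeR adjusted p = 1.14e-06).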
